A study of Neurospora crassa with 20 samples.

Results

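The mid-size H3K9me3 domains of the Neurospora crassa genome were taken as the peaks of the WT DD H3K9me3 list that were at least 1 kb and under 5 kb long. This length rule found 248 of the 691 peaks of that list. Another 197 peaks were under 1 kb and 246 were of 5 kb or more. The domains were selected on their length in WT DD, so that length, and the fold enrichment and q-value of the same list, are given as a description and were not tested.

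The series holds 20 ChIP-seq samples of mycelia in 10 conditions, with 2 biological replicates each. Cultures had 24 h of constant dark (DD) or the same dark period followed by 30 min of light (LP30). H3K9me3 peaks are listed for WT and for the deletion strain Δkmt2/Δset-1 in DD and LP30, against the H3K9me3 ChIP of Δkmt1/Δdim-5 DD, and H3K4me3 peaks for WT and Δkmt1/Δdim-5 in DD and LP30, against the H3K4me3 ChIP of Δkmt2/Δset-1. Both deletion strains came from the Neurospora knockout collection and were crossed back to the WT strain, and all 4 H3K9me3 lists share 1 control. Every list pools its 2 replicates, so no spread between replicates could be computed and no test between conditions was possible. The lists hold no read totals either, so the depth behind a domain is not known.

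In Neurospora, trimethylation of histone H3 at lysine 9 (H3K9me3) is laid down by the methyltransferase KMT1/DIM-5 and is bound by heterochromatin protein 1, which in turn brings in the DNA methyltransferase DIM-2. Most of it lies over AT-rich remains of transposable elements that were mutated by repeat-induced point mutation (RIP), at centromeres, near telomeres and at sites scattered between genes. Trimethylation at lysine 4 (H3K4me3) is laid down by KMT2/SET-1, mostly at the start of transcribed genes.

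The 248 domains covered 619.5 kb, which is 8.04% of the bases under H3K9me3 peaks in WT DD. Their lengths ran from 1006 to 4955 bp with a median of 2286 bp. The shortest domain, of 1006 bp over NCU07519 on chromosome III, had a fold enrichment of 1.09, and the next, of 1011 bp over NCU08255, had 1.11. The longest domain, of 4955 bp over NCU08234 and NCU08235 on chromosome III, had 1.12, whereas the next longest, of 4945 bp on chromosome I, had 1.90. Just outside the window lay peaks of 977 and 985 bp, with fold enrichments of 1.13 and 1.10, and peaks of 5028 and 5067 bp, with 1.93 and 2.03.

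The domains were divided by q-value into a weakly and a strongly enriched set. Fold enrichment is the ratio of the ChIP to its control, and the q-value is its p-value adjusted by the peak caller, both averaged over a broad peak. Of the 248 domains, 97 (39.1%) had a q under 0.01, against 48.8% of all WT DD peaks. These 97, called strongly enriched here, had a median fold enrichment of 1.76 (quartiles 1.51 and 1.89) and a median length of 2974 bp. The other 151, called weakly enriched, had a median fold enrichment of 1.12 (quartiles 1.11 and 1.14) and a median length of 1902 bp. There were 149 domains with a fold enrichment under 1.2, 25 from 1.2 to 1.5, 58 from 1.5 to 2.0 and 16 of 2.0 or more. These bins differ in width and do not show a gap between the sets. The fold enrichments of the sets overlapped, with a lowest strongly enriched value of 1.121 and a highest weakly enriched value of 1.235. The split by q was chosen after the values were seen.

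**Figure D1:**
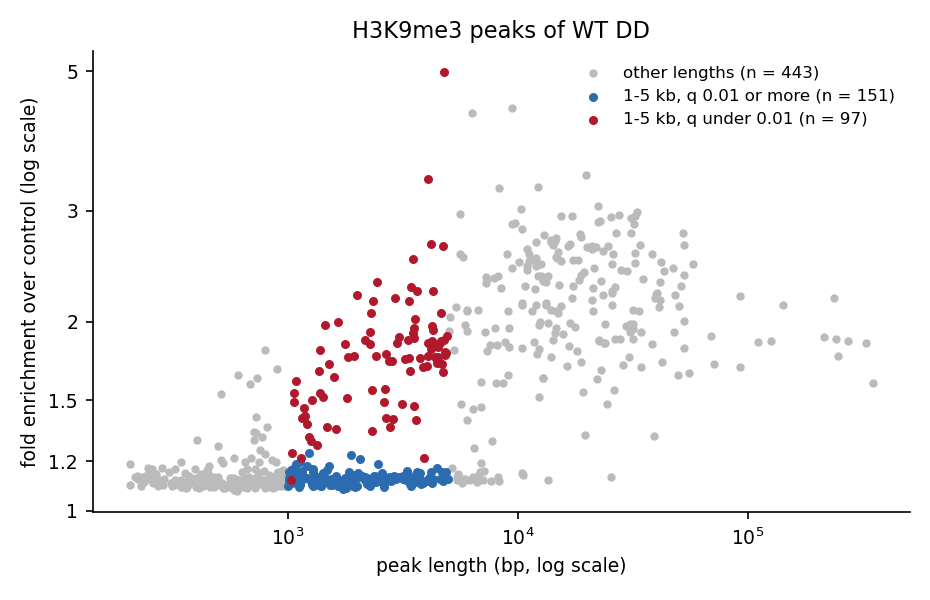
Length (x axis, bp) and fold enrichment over the Δkmt1/Δdim-5 control (y axis), both on log scales, of the 691 H3K9me3 peaks of WT DD, 1 point a peak. The 97 red points of the mid-size window rise from about the level of the 151 blue points, whose highest fold enrichment is 1.24, to 4.99.

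The share of strongly enriched domains was higher among longer domains. Of the domains under 2 kb, 30 of 113 had a q under 0.01, and of those from 2 to 3 kb, 19 of 54. Among domains from 3 to 4 kb it was 19 of 37, and among those over 4 kb it was 29 of 44. By comparison, 221 of the 246 longer domains had a q under 0.01. Because the q-value and the length come from the same peak call, no test was made of this relation.

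The weakly and strongly enriched domains were spread differently over the chromosomes. Chromosome III held 50 of the 151 weakly enriched domains but 7 of the 97 strongly enriched ones, with 17.5% of all WT DD peaks. Of the 50, 8 and 19 lay in 2 runs of peaks described further on. Chromosome I held 13 weakly and 28 strongly enriched domains, with 17.8% of all peaks. On chromosomes IV, V, VI and VII the weakly enriched domains numbered 30, 19, 27 and 8, and the strongly enriched ones 15, 15, 12 and 11. These chromosomes had 16.1%, 14.2%, 14.5% and 9.55% of all peaks. Chromosome II had the fewest domains, 4 and 8, and also the lowest share of all peaks among the chromosomes, 8.54%. A single domain lay on an unplaced supercontig (12.19).

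That domain, from 1 to 4755 of supercontig 12.19 in the NC12 build, had the highest fold enrichment of all. Its value was 4.99 in WT DD, 4.89 in WT LP30, 4.92 in Δkmt2/Δset-1 DD and 4.81 in Δkmt2/Δset-1 LP30, and all 4 lists gave it the same 4755 bp. The lists were normalized separately, so fold enrichments set side by side here are levels and not sizes of a change.

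The next 5 by fold enrichment all lay between genes. On chromosome V, the domain from 2204589 to 2208666 was 4078 bp long in WT DD, with peaks of 3990 bp in WT LP30, 5309 bp in Δkmt2/Δset-1 DD and 5543 bp in Δkmt2/Δset-1 LP30. Its fold enrichments were 3.37, 3.13, 3.13 and 3.26 in the same order, and its nearest gene, NCU03721, was 2382 bp away. Further along, from 2278111 to 2282314 and 288 bp from NCU03746, a domain of 4204 bp had fold enrichments of 2.66, 2.58, 2.60 and 2.60. The 4735 bp from 2848606 to 2853340 on chromosome II had 2.64, 2.52, 2.57 and 2.58, and the 3491 bp from 2419908 to 2423398 on chromosome VI had 2.51, 2.40, 2.41 and 2.43. All 5 were kept in the other 3 lists.

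The sixth, from 2231427 to 2233872 on chromosome II, was 63 bp from NCU01835 and had fold enrichments of 2.32, 2.25, 2.27 and 2.21. It also lay in part under an H3K4me3 peak in each of the 4 H3K4me3 lists, described further on.

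Each domain was followed through the other 3 H3K9me3 lists. A domain was absent when no peak overlapped it, fused when the overlapping peak also overlapped another WT DD peak, and split when 2 or more peaks overlapped it. Otherwise it was widened when the overlapping peak was at least 1.5 times as long, narrowed when it was shorter by the same factor, and kept in all other cases. An absent domain is one where the ChIP did not pass the peak caller's threshold, which does not show that the mark was missing. The paper set that threshold at a p-value under 0.1 from the peak caller, before adjustment. In WT DD the weakly enriched domains had a median −log10 q-value of only 0.75, and the lowest was 0.303.

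In WT LP30, that is after light, 154 of the 248 domains were kept, against 61.6% of all WT DD peaks. Narrowed domains numbered 43 of the 248 (17.3%), against 8.83% of all WT DD peaks, and split domains 20 (8.06%), against 5.93%. Absent domains numbered 21, where 16.6% of all WT DD peaks were absent. Only 8 domains were fused and 2 widened, where the values for all WT DD peaks were 2.75% and 4.20%. WT LP30 peaks covered 76.0% of the bases of the domains, and 7403941 of the 7709293 bp of all WT DD peaks.

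In Δkmt2/Δset-1 DD, 66 of the 248 domains (26.6%) were fused into larger ones, against 21.6% of all WT DD peaks. Fusion was about as common among peaks under 1 kb (27.9%) and less so among those of 5 kb or more (11.4%). Another 23 domains were widened (8.68% of all peaks), 111 were kept (49.1%) and 24 were absent (14.6%). The 22 narrowed domains made up 8.87%, against 4.78% of all peaks, and the 2 split ones 0.806%, against 1.30%. The Δkmt2/Δset-1 DD list covered 84.1% of the bases of the domains and 97.2% of those of all WT DD peaks.

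In Δkmt2/Δset-1 LP30 the values were 69 fused domains, against 22.0% of all WT DD peaks, 19 widened (7.81% of all), 115 kept (50.7%) and 28 absent (15.1%). The fused share was 27.8% of the domains, 26.9% of the peaks under 1 kb and 12.2% of those of 5 kb or more. There 14 domains (5.65%) were narrowed, against 3.33% of all peaks, and 3 were split (1.21%), against 1.16%. Peaks covered 82.1% of the bases of the domains and 97.1% of those of all WT DD peaks. None of these shares was tested against that of all peaks.

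Almost all of the fused and absent domains were weakly enriched. Of the 97 strongly enriched domains, 92 were kept in WT LP30, 87 in Δkmt2/Δset-1 DD and 88 in Δkmt2/Δset-1 LP30. In each list 1 of them was fused, and 0, 1 and 1 were absent in that order. Where 1 peak matched 1 strongly enriched domain, the median difference in length was -43 bp in WT LP30 and -21 bp in each Δkmt2/Δset-1 list. Such a match was within 10% of the WT DD length for 78 of 96 in WT LP30, 64 of 95 in Δkmt2/Δset-1 DD and 63 of 95 in Δkmt2/Δset-1 LP30.

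Of the 151 weakly enriched domains, 62 were kept, 39 narrowed, 20 split, 21 absent and 7 fused in WT LP30. In Δkmt2/Δset-1 DD, 65 were fused, 24 kept, 22 widened, 15 narrowed and 23 absent. In Δkmt2/Δset-1 LP30, 68 were fused, 27 kept, 17 widened, 9 narrowed and 27 absent. The lengths of weakly enriched domains therefore stayed the same in few cases: a match was within 10% of the WT DD length for 25 of 103 in WT LP30, 9 of 61 in Δkmt2/Δset-1 DD and 7 of 53 in Δkmt2/Δset-1 LP30. When every peak with a q of 0.01 or more was left out of all lists, 0, 1 and 1 domains were fused and 3, 6 and 7 were absent, in the order WT LP30, Δkmt2/Δset-1 DD, Δkmt2/Δset-1 LP30.

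**Figure D2:**
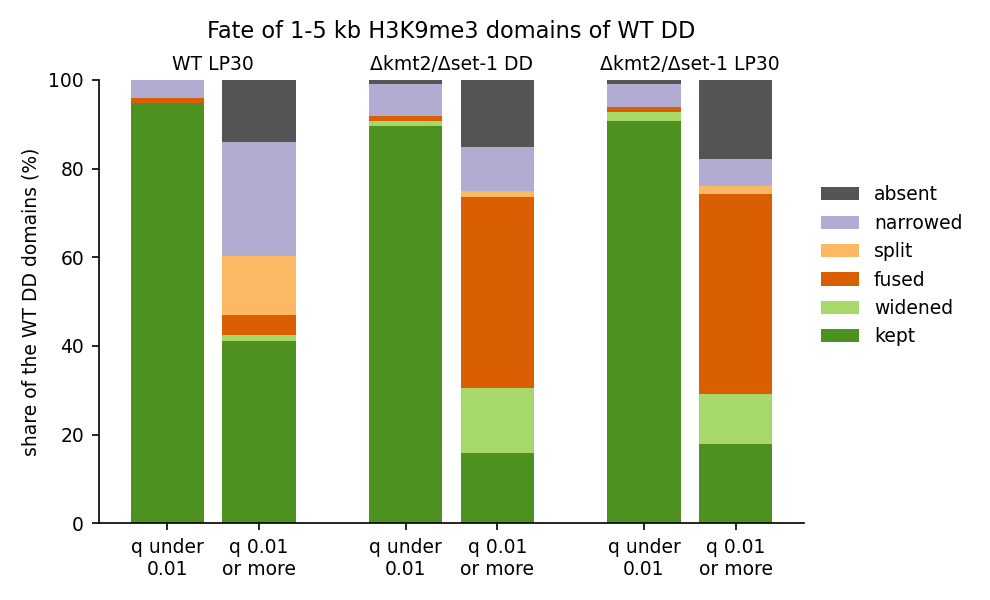
Share (y axis, %) of the 97 domains with a q under 0.01 and of the 151 with a q of 0.01 or more in WT DD that had each fate in the 3 other H3K9me3 lists, each bar adding up to the whole set. The kept share is 92 of 97, 87 of 97 and 88 of 97 in the first bar of each pair, and 62, 24 and 27 of 151 in the second.

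The larger domains that took up mid-size ones were themselves mostly weakly enriched. In Δkmt2/Δset-1 DD the 66 fused domains went into 36 larger ones with a median length of 12142 bp and a median fold enrichment of 1.15, and 8 of the 36 had a q under 0.01. In Δkmt2/Δset-1 LP30 the 69 went into 41, with a median length of 10272 bp, a median fold enrichment of 1.14, and 7 with a q under 0.01. About as many domains were fused with a WT DD domain of 5 kb or more as without one, 34 and 32 in DD and 38 and 31 in LP30. The gaps bridged had a median of 1277 bp in DD and 1318 bp in LP30, and the largest were 5565 and 6092 bp. In WT LP30 the 8 fused domains were joined by 7 peaks with a median length of 3676 bp. One of these, of 1369 bp on chromosome VI, overlapped 2 domains that were both longer than it.

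Fusion was found where another WT DD peak lay close by. Of the 86 domains with another peak within 2 kb, 58 were fused in Δkmt2/Δset-1 DD and 60 in Δkmt2/Δset-1 LP30. Of the 37 with the next peak 2 to 5 kb away, 7 and 8 were fused, and of the 26 at 5 to 10 kb, 1 and 1. None of the 98 with the next peak over 10 kb away was fused in either list. The definition asks for a second WT DD peak inside the larger one, so a short gap favours fusion by construction. Within 2 kb, however, 7 domains were strongly enriched, and 1 of these was fused in each list.

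That fused strongly enriched domain lay on chromosome VI from 3030425 to 3034320, 3896 bp long with a fold enrichment of 1.22, and 947 bp from a long domain. In WT LP30 it was kept, at 3329 bp. In Δkmt2/Δset-1 DD and LP30 it was within a domain of 296391 and 296397 bp.

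The only domain with a q under 0.01 that was absent from both Δkmt2/Δset-1 lists lay on chromosome I from 9406873 to 9407932. It was 1060 bp long with a fold enrichment of 1.49 in WT DD, and 1025 bp with 1.54 in WT LP30. The nearest gene, NCU09251, was 83 bp away, the nearest WT DD H3K4me3 summit 2001 bp and the nearest long domain 69592 bp. Both WT lists thus held it and neither Δkmt2/Δset-1 list did. A reading of this locus rests on pooled lists, and the reads there were not analysed here.

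Of the other strongly enriched domains, a few changed in length in Δkmt2/Δset-1 but stayed listed. On chromosome I, 443 bp from NCU16441, a domain of 2321 bp in WT DD and 2367 bp in WT LP30 had 1374 and 1296 bp in Δkmt2/Δset-1 DD and LP30. Its fold enrichments were 1.34, 1.40, 1.18 and 1.21. On chromosome V, 2830 bp from NCU01383, a domain of 3534 bp with a fold enrichment of 1.88 was 2060 and 2237 bp long in the Δkmt2/Δset-1 lists, with 2.14 and 2.17. In WT LP30 it was fused with a neighbour into 4976 bp, with 1.83. The first of these had a lower listed fold enrichment in Δkmt2/Δset-1 and the other a higher one. These values are means over peaks of different length in lists normalized separately, so they give no direction of change. These examples were chosen after their values were seen.

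The domains absent from all 3 other lists numbered 5, and 0 of the 5 had a q under 0.01. Those with the highest fold enrichment were one of 1232 bp with 1.23 on chromosome II, 2264 bp from NCU03520, one of 1038 bp with 1.16 on chromosome I, 3650 bp from NCU00907, and one of 1017 bp with 1.15, also on chromosome I, 1050 bp from NCU02086.

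The domains that gained most in Δkmt2/Δset-1 DD without fusing were all weakly enriched. Between genes on chromosome IV, from 471225 to 474125 and 361 bp from NCU04853, a domain of 2901 bp in WT DD had 671 bp under a peak in WT LP30, 12270 bp in Δkmt2/Δset-1 DD and 7514 bp in Δkmt2/Δset-1 LP30. Its fold enrichments were 1.14, 1.17, 1.15 and 1.16, each a mean over a listed peak of different length. On chromosome III, over NCU08204, a domain of 1044 bp had 794, 6340 and 5989 bp in the same lists. Near the left end of a run of peaks on chromosome III, 181 bp from NCU09163, 1542 bp became 867, 6447 and 3268 bp. The other 3 lay on chromosome V, over NCU09950 and NCU09951, over NCU09956 and NCU09957, and over NCU17041, with 1582, 2351 and 1999 bp in WT DD and 5848, 6184 and 5213 bp in Δkmt2/Δset-1 DD. In Δkmt2/Δset-1 LP30 they had 2191, 5535 and 4937 bp, and the first of them counted as kept there.

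The weakly enriched domains lay close to other peaks and the strongly enriched ones apart. The distance to the next H3K9me3 peak had a median of 1843 bp for the weakly enriched domains (quartiles 1078 and 5631 bp) and 24378 bp for the strongly enriched ones (quartiles 8529 and 43348 bp). The closest peaks of the WT DD list were 833 bp apart. To the nearest domain of 5 kb or more, the median was 12543 bp for the weakly and 46491 bp for the strongly enriched domains, and 21320 bp for all. Of the 248 domains, 88 lay within 10 kb of a long domain, against 30.8% of all WT DD peaks under 5 kb. Of these 88, 68 were weakly and 20 strongly enriched.

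**Figure D3:**
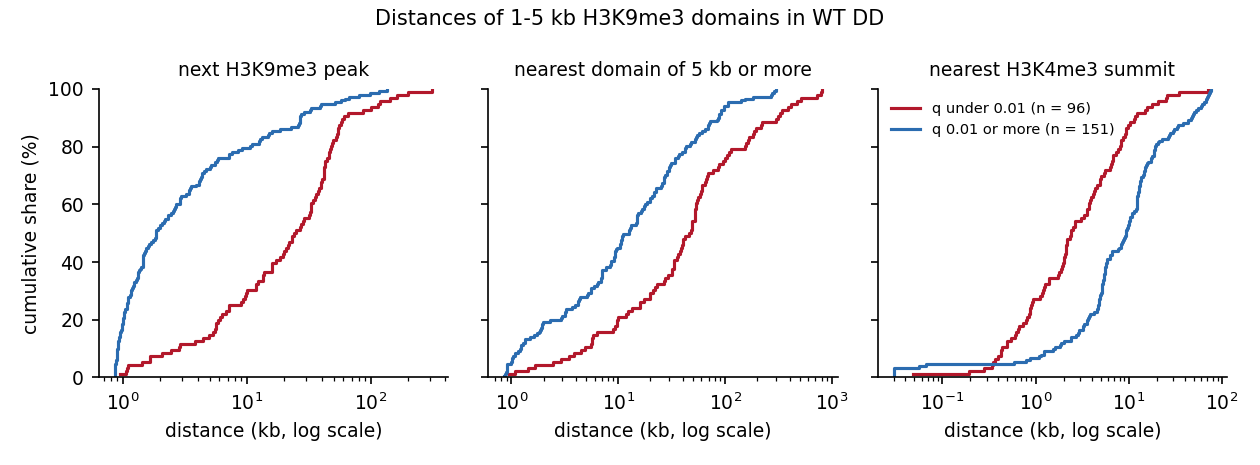
Cumulative share (y axis, %) of the strongly (red) and weakly (blue) enriched mid-size domains by distance (x axis, kb, log scale) to the next WT DD H3K9me3 peak, the nearest WT DD domain of 5 kb or more and the nearest WT DD H3K4me3 summit. Medians are 24378 and 1843 bp in the left panel, 46491 and 12543 bp in the middle one and 2394.5 and 9390 bp in the right one, where domains that hold a summit are drawn at the left edge.

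Many weakly enriched domains stood in runs. When WT DD peaks were chained over gaps of at most 10 kb, 4 runs held 5 or more mid-size domains, 42 domains in all, of which 41 were weakly enriched. By contrast, 68 of the 97 strongly enriched domains and 31 of the 151 weakly enriched ones had no other WT DD peak of any length within 10 kb.

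The longest run spanned 156.4 kb on chromosome III, from 4724008 to 4880417, and held 19 mid-size domains, all weakly enriched, with 8 shorter peaks and 2 longer domains. The WT DD list had 29 peaks over 96.9 kb there and WT LP30 had 30 peaks over 74.2 kb. In Δkmt2/Δset-1 there were 10 peaks over 136.0 kb in DD and 10 peaks over 133.2 kb in LP30. Both WT lists thus broke the run into many short peaks, and both Δkmt2/Δset-1 lists had fewer and longer ones, the longest of 64.5 kb in DD and 86.3 kb in LP30. The run spanned 51 annotated genes, and 0 H3K4me3 peaks of either WT list and 1 of each Δkmt1/Δdim-5 list lay in it.

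**Figure D4:**
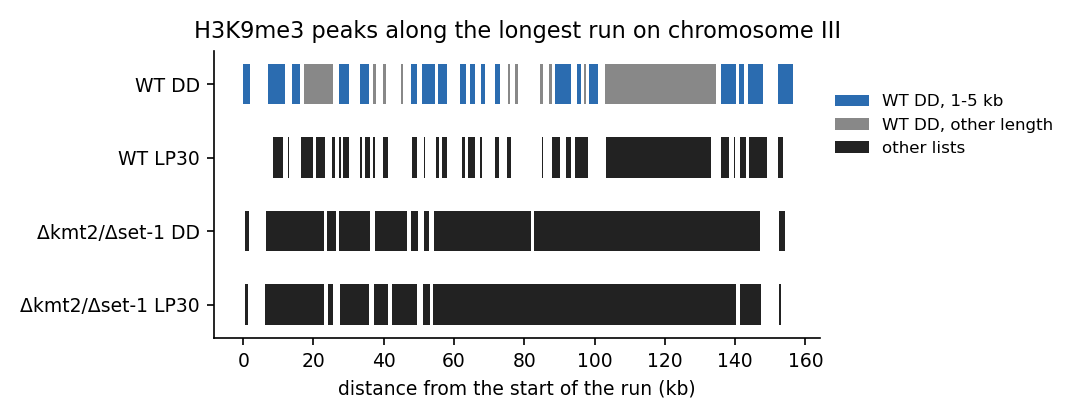
H3K9me3 peaks of the 4 lists (rows) along the 156.4 kb run on chromosome III, with the distance from its start on the x axis (kb). The 29 WT DD peaks, with the 19 mid-size ones in blue, and the 30 WT LP30 peaks leave gaps that the 10 peaks of each Δkmt2/Δset-1 list mostly cover.

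The other 3 runs were less uniform. On chromosome IV, from 306611 to 394419, 14 WT DD peaks over 63.5 kb stood against 16 over 53.2 kb in WT LP30, 5 over 73.2 kb in Δkmt2/Δset-1 DD and 4 over 72.0 kb in Δkmt2/Δset-1 LP30. On chromosome VI, from 3704311 to 3816949, the peaks numbered 15, 20, 9 and 10 over 74.8, 66.1, 83.0 and 80.6 kb. On chromosome III from 221800 to 327686, however, the numbers were 12, 13, 13 and 13 over 67.9, 56.9, 70.1 and 67.6 kb. In that run Δkmt2/Δset-1 had no fewer peaks than WT. The runs of 10 kb gaps were chosen after the values were seen.

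Genes were looked up by their spans, and strand and exons were not used. Of the 248 domains, 140 overlapped an annotated gene by at least 1 bp, against 49.1% of all WT DD peaks. They were 111 of the 151 weakly enriched and 29 of the 97 strongly enriched domains. The median share of a domain that lay in genes was 27.6% for the weakly enriched domains and 0% for the strongly enriched ones. In all, 194 genes were overlapped, 180 of them protein-coding and 7 for tRNAs. Of 102 genes that were covered to at least 50%, 98 lay under weakly and 4 under strongly enriched domains.

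Few of these genes carry a name. A strongly enriched domain of 2644 bp with a fold enrichment of 1.56 reached 50 bp into cot-1 (NCU07296), which encodes a kinase needed for hyphal elongation. Another, of 1155 bp with 1.40, covered 34.1% of trx (NCU05731), a thioredoxin gene. One more, of 1614 bp with 1.35, covered 9.89% of nst-3 (NCU03059), which encodes an NAD-dependent deacetylase of the Sir2 family, and one of 4058 bp with 1.85 covered 3.04% of tca-17 (NCU00720). The domains at cot-1, nst-3 and tca-17 were kept in the 3 other lists. The domain at trx was kept in WT LP30 at 1099 bp and was narrowed to 599 and 598 bp in Δkmt2/Δset-1 DD and LP30.

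Weakly enriched domains reached into 5 named genes. They covered 16.0% of aod-3 (NCU04874), an alternative oxidase gene, with a fold enrichment of 1.09, and 12.8% of the glycoside hydrolase gene gh7-1 (NCU05057), with 1.10. One domain with 1.13 reached 4.28% of gh81-1 (NCU07076) and 4.85% of cax (NCU07075), which encodes a calcium/proton exchanger. The domain at acw-3 (NCU05667), a cell wall protein gene, covered 8.94% of it with 1.10. It was kept in WT LP30 and widened in both Δkmt2/Δset-1 lists, the domain at aod-3 was fused in both, and that at gh7-1 was absent from WT LP30 and kept in both.

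The mid-size domains overlapped 1.87% of all annotated genes, so a short list of genes need not hold one that lies under a domain. Of 12 light and clock genes, 0 were under a domain or within 2 kb of one. The carotenoid gene al-2 was nearest, 2996 bp from a domain with a fold enrichment of 1.18. The clock gene frq was 115743 bp and the photoreceptor genes vvd and wc-1 were 112497 and 186974 bp from the nearest domain. These distances are to mid-size domains only, and peaks of other lengths were not looked up for these genes. The paper reports H3K9me3 in WT at frq, and at vvd, where it was lost after light. Of 13 heterochromatin and RIP genes, 12 were found in the annotation and 0 were under a domain or within 2 kb. The nearest was set-1 itself, at 10800 bp, and dim-5 was 116290 bp away.

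H3K4me3 summits lay nearer to the strongly enriched domains. The median distance to the nearest WT DD summit was 2394.5 bp for these and 9390 bp for the weakly enriched ones, with 5565 bp for all 248 domains and 5116.5 bp for all 691 peaks. With the other H3K4me3 lists the medians were 2430.5 and 9582 bp in WT LP30, and for Δkmt1/Δdim-5 2207 and 7561 bp in DD and 2111.5 and 7064 bp in LP30. A WT DD summit lay within 1 kb of 26 of the 97 strongly enriched (26.8%) and 10 of the 151 weakly enriched domains (6.62%). For all 248 domains the share was 14.5%, against 15.9% of all WT DD peaks and 24.0% of those of 5 kb or more.

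Overlap of the marks was rare. A WT DD H3K4me3 peak overlapped 16 of the 248 domains, against 7.38% of all WT DD H3K9me3 peaks, and covered 0.676% of their bases. The WT LP30 list overlapped 16 domains (9.26% of all peaks), Δkmt1/Δdim-5 DD 15 (10.1%) and Δkmt1/Δdim-5 LP30 11 (8.25%). Of the 16 in WT DD, 8 were strongly and 8 weakly enriched, but a summit lay inside 0 of the strongly and 5 of the weakly enriched domains. These 5 are 2.02% of the 248 domains, where 2.89% of all WT DD peaks held a summit. The other lists did not show this split. A WT LP30 summit lay inside 3 strongly and 4 weakly enriched domains. For Δkmt1/Δdim-5 the counts were 2 and 4 in DD and 2 and 1 in LP30. In these 3 lists 2.82%, 2.42% and 1.21% of the domains held a summit, against 5.21%, 5.21% and 3.76% of all WT DD peaks.

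At the strongly enriched domains the H3K4me3 peak of WT DD overlapped an edge, with its summit outside. On chromosome I, the domain from 384006 to 385460 met an H3K4me3 peak of 2.41-fold enrichment by 38 bp in WT DD and 10 bp in WT LP30. At NCU05731 (trx) a peak of 2.15-fold enrichment overlapped the domain by 315 bp in WT DD, 288 bp in WT LP30, and 178 and 193 bp in DD and LP30 of Δkmt1/Δdim-5. Beside NCU01835 on chromosome II, where H3K9me3 was 2.32-fold, the H3K4me3 peak was 2.28-fold in WT DD. The overlap there was 677 bp in WT DD, 972 bp in WT LP30 over 2 peaks, and 622 and 840 bp in DD and LP30 of Δkmt1/Δdim-5. Overlaps at the other 3 with the highest H3K4me3 were 68 bp 9 bp from NCU09803, 67 bp at NCU09294 and 197 bp at NCU11292, with 1.85, 1.79 and 1.75-fold H3K4me3. All 6 of these domains were matched by a peak in each of the 4 H3K9me3 lists.

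The 5 domains that held a WT DD H3K4me3 summit were all matched in WT LP30 and were all absent from Δkmt2/Δset-1 DD and from Δkmt2/Δset-1 LP30. With summits of the WT LP30 list this held for the 4 weakly enriched domains with a summit inside. The 3 strongly enriched domains that held a WT LP30 summit were kept or narrowed in both Δkmt2/Δset-1 lists. Of the 143 weakly enriched domains under no WT DD H3K4me3 peak, 17 were absent from Δkmt2/Δset-1 DD and 21 from Δkmt2/Δset-1 LP30. Of the 5 peaks under 1 kb that held a WT DD summit, 4 were absent from each Δkmt2/Δset-1 list, and of the 10 such domains of 5 kb or more, all with a q under 0.01, 0 were absent. The 5 were picked out after their fates were seen, and no test was made. None of the 5 mid-size domains had a q under 0.01 for H3K9me3.

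The first, on chromosome I from 8172968 to 8175336 and 1342 bp from NCU00510, was 2369 bp long in WT DD and 2419 bp in WT LP30, with an H3K9me3 fold enrichment of 1.14 in both. Its H3K4me3 peak of 681 bp in WT DD had a fold enrichment of 1.15. The WT LP30 H3K4me3 list covered 566 bp of it and neither Δkmt1/Δdim-5 list any. On the same chromosome, over NCU02913, the domain from 8716507 to 8717883 was 1377 bp long with 1.10 in WT DD and had 200 bp with 1.14 in WT LP30. An H3K4me3 peak, of 341 bp and 1.15-fold, overlapped this domain in the WT DD list alone. The nearest summit outside it was 1626 and 1661 bp away in Δkmt1/Δdim-5 DD and LP30, and 9758 bp in WT LP30. The paper presents this locus as one with KMT2/SET-1-dependent H3K9me3. It also reports more H3K4me3 in Δkmt1/Δdim-5 near NCU16472, the divergent neighbour of NCU02913.

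On chromosome II, over NCU08431, the domain from 4044993 to 4046335 had 1343 bp in WT DD and 1151 bp in WT LP30, with 1.13 and 1.16. H3K4me3 was 1.19-fold in WT DD, covered 554 bp in WT LP30 and was not listed there in Δkmt1/Δdim-5. Over NCU05663 and NCU05664 on chromosome III, 2166 bp with 1.12 in WT DD were 1368 bp with 1.14 in WT LP30, and H3K4me3 was 1.16-fold in WT DD and not listed in the other 3. The last, over NCU15339 and NCU15338 on chromosome VII from 1239751 to 1241529, had 1779 bp with 1.13 in WT DD and 815 bp with 1.15 in WT LP30. Its H3K4me3 peak was 1.38-fold in WT DD, the only one of the 5 with a q under 0.01, and covered 666 bp in WT LP30, and 561 and 0 bp in DD and LP30 of Δkmt1/Δdim-5.

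Both the control and the ChIP signal for H3K4me3 were low at the 5 WT DD summits. The H3K4me3 control is the ChIP of Δkmt2/Δset-1, the strain whose H3K9me3 lists lacked the 5 domains. The control pileup at each summit, that is the control fragments that the peak caller set against the ChIP, could be solved from the fold enrichment and the p-value for 4448 of the 4449 WT DD peaks. Its median was 221 over all of them, with a 5th percentile of 180. At the 5 summits it was 175, 186, 174, 210 and 136 in the order above, under the median in each and under the 5th percentile in 3. The ChIP pileup was 202, 214, 208, 243 and 187 at the same summits, where its median over all solved peaks was 400. The 5 were not set against other weak H3K4me3 peaks alone. The part of the low control signal in the absence of the 5 domains from Δkmt2/Δset-1 was not tested.

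Away from the summits, weakly enriched domains were fused more often. Of those with a summit outside but within 1 kb, 0 of 5 were fused in Δkmt2/Δset-1 DD. At 1 to 5 kb it was 7 of 33, at 5 to 10 kb 14 of 37 and over 10 kb 44 of 71. In Δkmt2/Δset-1 LP30 the counts were 0 of 5, 6 of 33, 13 of 37 and 49 of 71. The gap to the next H3K9me3 peak moved with this order, with medians of 15065, 4218, 2289 and 1339 bp, so that domains far from a summit were also those close to other H3K9me3 peaks. The part of each was not tested.

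**Figure D5:**
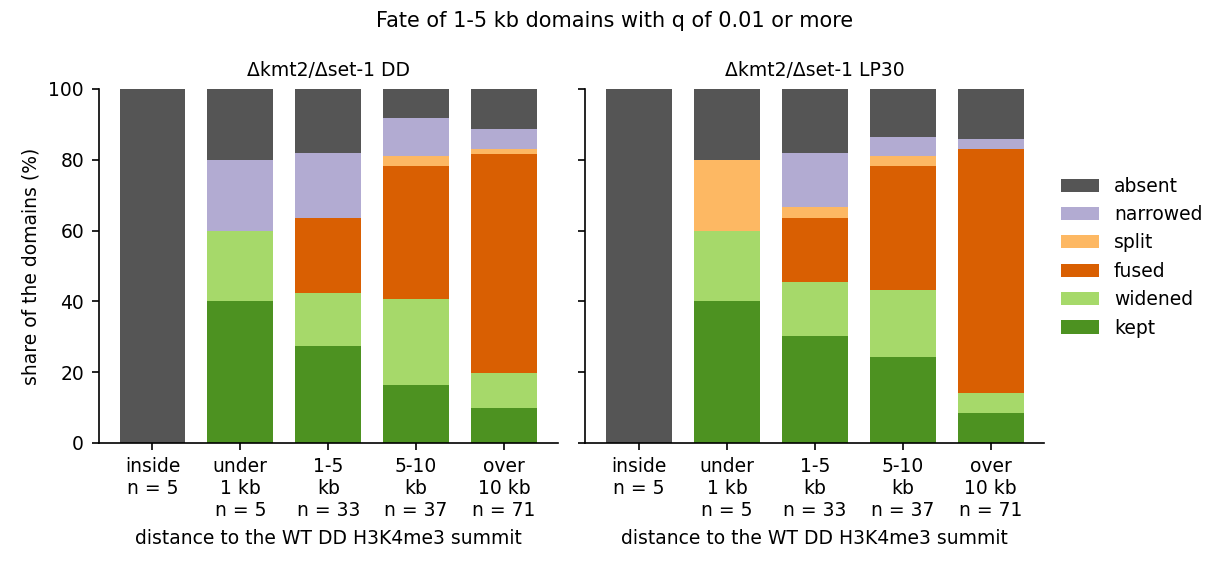
Share (y axis, %) of the 151 weakly enriched mid-size domains with each fate in Δkmt2/Δset-1 DD and LP30, by distance to the nearest WT DD H3K4me3 summit (x axis, with the number of domains). The 5 domains with a summit inside are all absent, and the fused share reaches 44 of 71 in DD and 49 of 71 in LP30 over 10 kb away.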

How the data were processed

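Per the labels and the study's methods, ChIP reads were mapped to the NC12 build with BWA and the authors called peaks with MACS2, broad for H3K9me3 and narrow for H3K4me3, with the replicates of a condition pooled. Of the deposited values, fold enrichment is a ratio of ChIP over control made by the authors, and the −log10 p-value and −log10 q-value are those of the peak caller. They are means over a broad peak and values at the summit of a narrow one. Deposited scores were not used.

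Peaks overlapped when they shared 1 bp. Distances run from edge to edge on the same chromosome. Genes came from RefSeq's NC12 table (10397 on the chromosomes), and supercontigs 12.1 to 12.7 were read as chromosomes I to VII, which put 97.1% to 99.3% of H3K4me3 summits into genes. Pileups were solved from (k + 1)/(λ + 1) and the Poisson p-value, and the solved −log10 p had to be within 1% of the listed one. Fates and pileups were tested on simulated data. The simulated pileups were made with the formula used to solve them. Their fold enrichments did not go as low as 1.15, the lowest H3K4me3 value at the 5 summits inside domains. Python 3.11.15, numpy 2.4.6, pandas 2.3.3 and scipy 1.17.1 were used.

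Domains named in the text are the 6 of highest fold enrichment, those with a q under 0.01 absent from both Δkmt2/Δset-1 lists, the 6 that gained most bases in Δkmt2/Δset-1 DD, up to 3 absent from all other lists, the 6 with the strongest H3K4me3 and those at the ends of the window. Others are marked as chosen later. The members and lists were chosen with earlier results of these data known. Alternatives covered q and fold minimums, the length window, the overlap rule, the factor for widening and the distances.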

Additional observations from a re-analysis of the deposited data

How the results depend on the processing

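Each count was taken again under 42 alternatives for 16 results, and 10 of these stayed within 1.5 times the first value. The lists pool replicates, so none could be left out, and the depth behind a weak peak is not known. No paired analysis was possible because each condition has 1 pooled list and no test was made. The A+T content of the domains was not run, since no genome sequence was used here.

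A q under 0.01 left 97 of the 248 domains and a fold enrichment of at least 1.2 left 99. With at least 50% of a domain covered, 63 were absent from WT LP30, 41 from Δkmt2/Δset-1 DD and 46 from Δkmt2/Δset-1 LP30. With a q under 0.01 in both lists, 3, 6 and 7 were absent, 0, 1 and 1 fused and 0, 0 and 0 widened. With it for the domains alone, 0, 1 and 1 were absent. Fusion judged by size (5 kb or more and 1.5 times the domain) fell to 2 domains in WT LP30. Widening by a lower factor than 1.5 counted 8 in WT LP30 and 30 in Δkmt2/Δset-1 LP30, and by 2 times 1, 10 and 11.

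Long domains of at least 10 kb were within 10 kb of 51 domains, those of 5 kb within 5 kb of 52, and a q under 0.01 for both left 19. An H3K4me3 overlap at least as long as nucleosomal DNA held for 10 domains, 42 lay at least 50% in genes, and 29 over genes had a q under 0.01. Among alternatives chosen after seeing the data, H3K4me3 peaks with a q under 0.01 left 1 of the 5 domains with a summit inside. Gaps of at most 5 and 20 kb put 23 and 80 domains into runs of 5 or more.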

Other observations

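Peaks of 1 to 5 kb were about as large a share of the other H3K9me3 lists as of WT DD, with 252 of 700 in WT LP30, 295 of 827 in Δkmt2/Δset-1 DD and 281 of 780 in Δkmt2/Δset-1 LP30. Those over no WT DD peak numbered 12, 110 and 100 in that order. Of the 110 in Δkmt2/Δset-1 DD, 81 lay over a gene, 48 were within 10 kb of a WT DD peak, 2 were under a WT DD H3K4me3 peak and 9 passed a q of 0.01, with a median fold enrichment of 1.12 over all 110. Of the 100 in Δkmt2/Δset-1 LP30 the same values were 75, 44, 2 and 2, with 1.12. Among those of DD the highest fold enrichment was 1.30. The median of each set was thus at that of the weakly enriched domains of WT DD, while the peaks with a q under 0.01 fall outside what was called weakly enriched.

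Domains absent from both Δkmt2/Δset-1 lists but matched in WT LP30 numbered 16 among the 151 weakly enriched ones (10.6%). The same share was not computed over all WT DD peaks. Of all WT DD peaks, 14.6% were absent from Δkmt2/Δset-1 DD and 15.1% from Δkmt2/Δset-1 LP30, so the 16 are not shown to exceed the general rate. Besides those that held a WT DD H3K4me3 summit, the 16 include a domain of 3561 bp over NCU08524, NCU08523 and NCU08522 on chromosome III. Its fold enrichments were 1.13 in WT DD and 1.15 in WT LP30. They also include a domain of 1848 bp over NCU16720 on chromosome IV, with 1.15 in both. The NCU16720 domain held no WT DD H3K4me3 summit but held one of the WT LP30 list and one of the Δkmt1/Δdim-5 DD list. A pair of the domains absent from both Δkmt2/Δset-1 lists, on chromosome IV and of 1149 and 2609 bp, lay 236 bp from NCU07623 and over it.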
